A study of Macaca mulatta with 10 samples.

Results

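Pulsatile infusion of follicle-stimulating hormone and luteinizing hormone (FSH+LH) for 48 h was compared with vehicle in the testis of juvenile rhesus macaques (Macaca mulatta), outside the genes classically used to describe Leydig, Sertoli and germ cells. The 6 libraries of these groups were used out of the 10 in the series, chosen by their treatment labels, with 1 animal per library. All animals were wild type. The vehicle animals were 24, 14 and 15 months old (vehicle replicates 1, 2 and 3), and the animals infused for 48 h were 22, 14 and 15 months old (48 h replicates 1, 2 and 3). A further 4 animals, 14 months old and infused for 96 h, entered the statistical fit only. RNA came from the right testis, divided into fragments and snap-frozen, and the length of the vehicle infusion is not among the labels' details.

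FSH acts on Sertoli cells, the somatic cells of the seminiferous tubules that support germ cells, and LH acts on Leydig cells, the interstitial cells that make androgen. Both hormones signal through receptors that raise cyclic AMP. In the juvenile primate testis the drive from the pituitary is low, Leydig cells are few or immature and spermatogonia are the main germ cells, so an infusion replaces a hormone signal that normally returns at puberty. Androgen synthesis starts inside mitochondria, and secreted and membrane proteins pass through the endoplasmic reticulum and Golgi. These compartments, the proteasome that degrades tagged proteins, the cytoskeleton, transporters, and the receptors and ligands of other signalling pathways are described here. The lists of genes for them were chosen with earlier results of these data known.

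The deposited tables held raw read counts for 26813 loci, with 28620274, 23607039 and 29230966 counts in vehicle replicates 1 to 3 and 29953149, 27824411 and 30375928 counts in 48 h replicates 1 to 3. Levels are given as CPM, the count of a locus scaled to the size of its library. Changes are log2 fold changes of 48 h over vehicle ± SE from edgeR, and a locus was called when its Benjamini-Hochberg adjusted p over all loci was below 0.05. Testis markers were present in each of the 6 libraries: the Leydig gene CYP17A1 rose from 15.7, 20.3 and 25.3 CPM to 255, 249 and 183 CPM, and the Sertoli gene SOX9 stood at 41.8, 50.4 and 44.6 CPM against 49.7, 44.6 and 46.6 CPM. DDX4, a germ cell RNA helicase, stood at 76, 65.8 and 79.9 CPM against 58.2, 41.7 and 59.6 CPM and was not called. DAZL, another germ cell marker, was called lower (log2 fold change -0.86), a call lost without both animals over 20 months. Of 76 measured germ cell genes, 60 had negative and 16 positive fold changes, with a median of -0.29 against 0.07 over all symbols. In whole-tissue RNA, fewer cells of a type and less RNA per cell cannot be told apart, and this holds for each result below. The 48 h replicate 2 had the lowest mitochondrial share of counts, 1.373% against 2.477% to 2.947% in the other 5.

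At 48 h 3273 loci were called, 12.2% of those tested, of which 2288 were higher and 985 lower. Scaling by the upper quartile instead gave 1392 higher and 1732 lower, and correcting for exonic length gave 2687 and 674. Upper-quartile scaling moved the median over all loci, on the log2 scale, from -0.07 to -0.20, so small shifts of a family's median depend on the scaling. Among 14098 loci with a gene symbol, 2048 (14.5%) were higher and 464 (3.29%) lower, with a median log2 fold change of 0.07. The classic Leydig, Sertoli and germ cell lists, with 159 measured genes, held 48 of the higher and 5 of the lower symbols. A set of 57 other families with 2631 distinct measured members held 513 higher and 74 lower genes. Among the loci with a gene symbol, 315 were called and over 2-fold higher, and 113 were called and over 2-fold lower. Of all loci, 36.1% had 3 libraries of one group entirely above or below the 3 of the other, and this share is the background for each statement below that libraries did not overlap.

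The families, chosen with earlier results of these data known, differed widely in how many members were called. In 17 of the 57, over 30% of the measured members rose, led by subunits of the respiratory chain (82.3%), protein entry into the endoplasmic reticulum and N-glycosylation (72.2%) and the proteasome (71.4%). Vesicle coat proteins (68.9%), cytosolic aminoacyl tRNA synthetases (61.9%), core spliceosome proteins (61.5%) and the citric acid cycle (60.7%) followed. Cytosolic ribosomal proteins (3.75%), zinc finger genes (2.13%) and potassium channels (1.49%) stood below the share of all symbols. In 10 families more members fell than rose, among them the insulin-like growth factor system and the nuclear hormone receptors. The choice of scaling changed the sign of a family's median in 8 of the 57 families with upper-quartile scaling and in 1 with relative log expression (RLE) scaling.

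**Figure D1:**
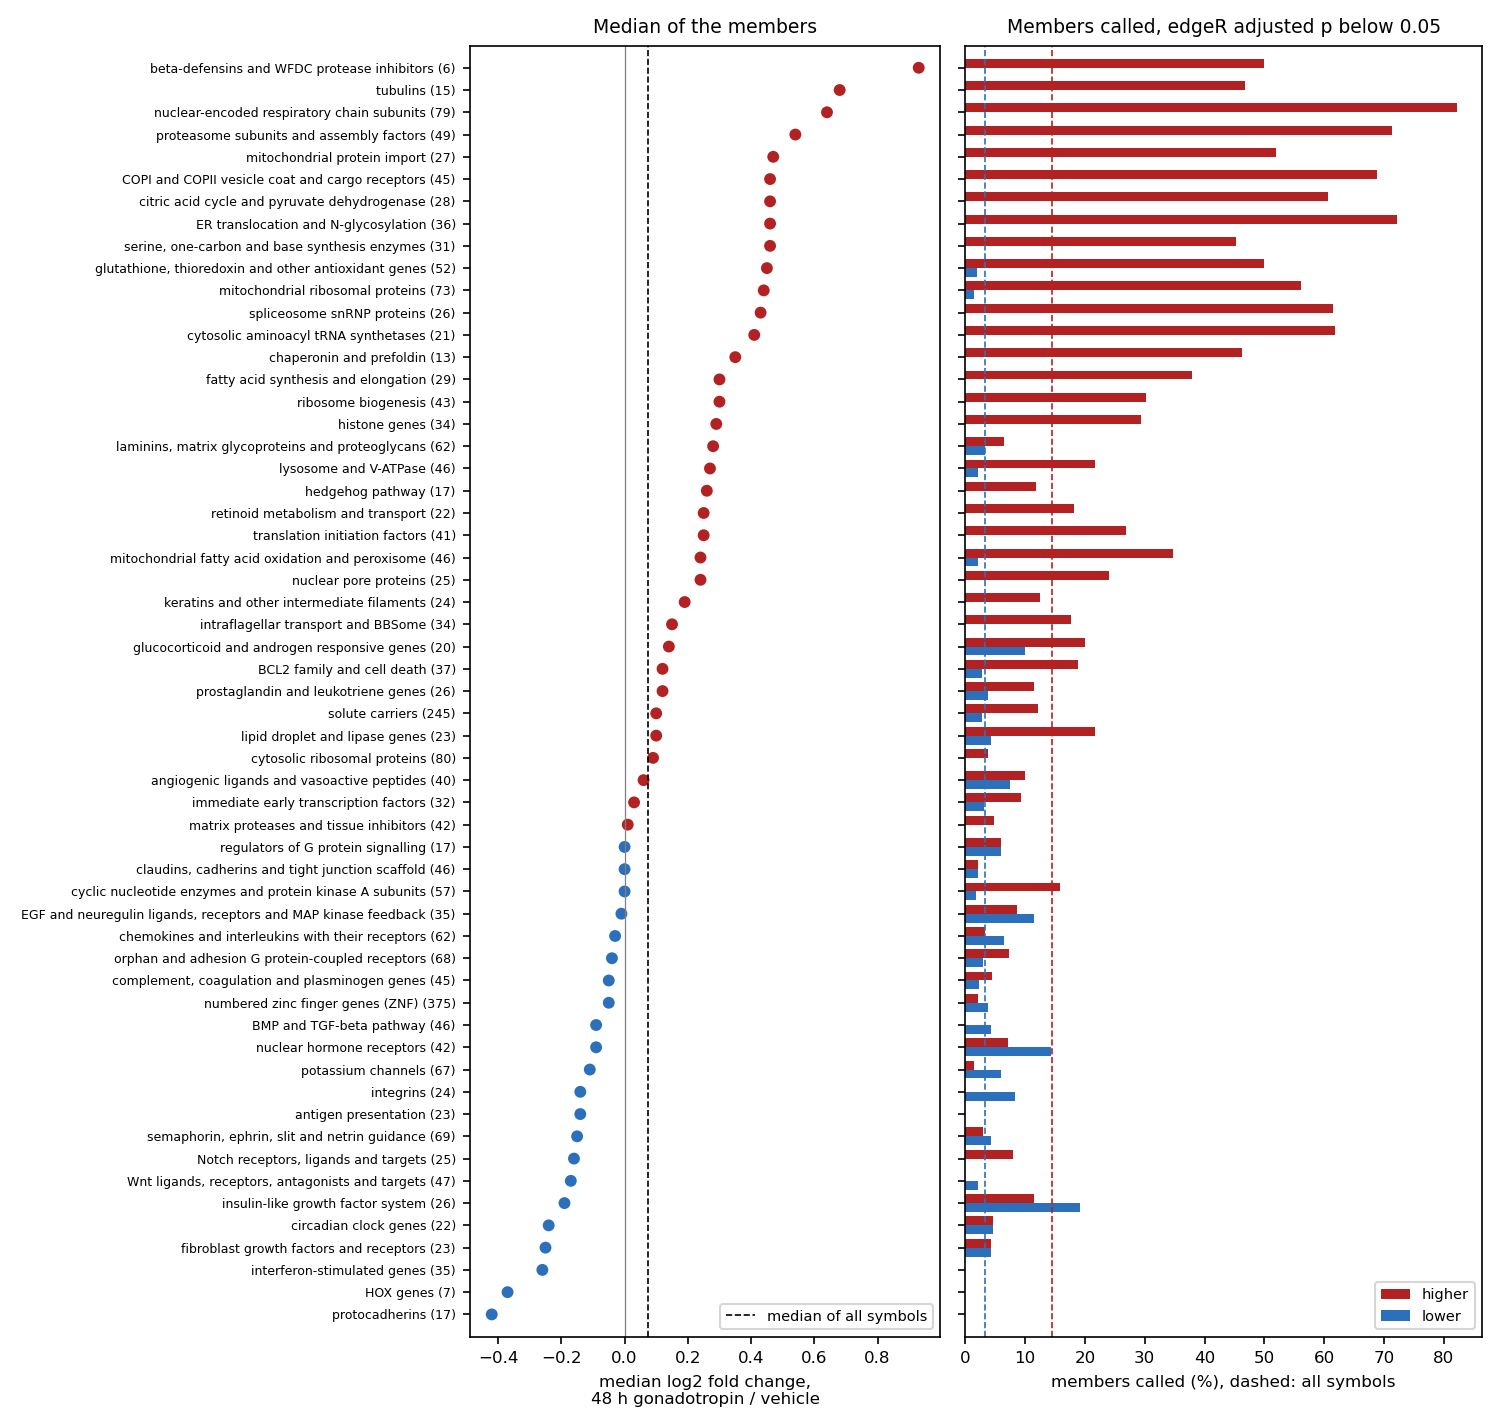
Median log2 fold change (48 h over vehicle) of the measured members of each family (left) and the percentage of members called higher or lower by edgeR (right), with dashed lines at the values over all 14098 symbols. Respiratory chain, endoplasmic reticulum entry and proteasome genes have the highest shares called higher (82.3%, 72.2% and 71.4%), whereas protocadherins and interferon-stimulated genes have no called member.

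Over all symbols, short transcripts had higher fold changes than long ones, and this gradient may bear on any family below. Symbols were ranked by exonic length and split into equal classes. In the class with the shortest transcripts (median 1626 bases) the median log2 fold change was 0.30, with 847 called higher and 25 lower. In the class with the longest (median 10155 bases) it was -0.07, with 151 higher and 216 lower. Respiratory chain genes had a median exonic length of 863 bases and proteasome genes of 1620 bases. Cytosolic ribosomal protein genes were shorter still (716 bases), and few of them were called. With each library's trend on exonic length removed, the median of the respiratory chain genes was 0.58 in place of 0.64, that of the proteasome genes 0.50 in place of 0.54, and that of the mitochondrial ribosome genes 0.42 in place of 0.44. Among the genes that fell, the call for DST, a cytoskeletal linker, was lost with this correction, and the calls for ROBO1, ERBB3, NR3C1 and HGF were not.

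**Figure D2:**
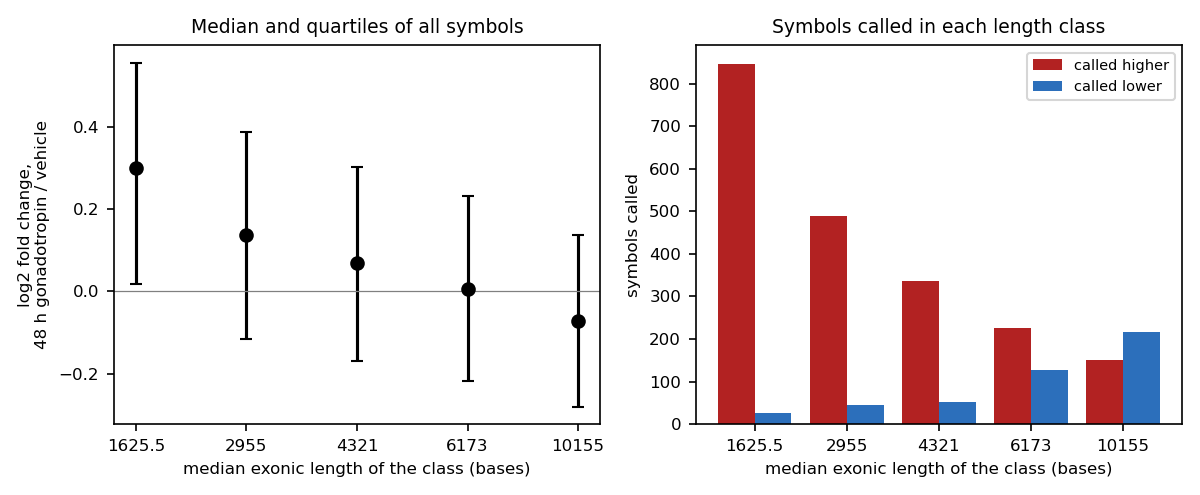
Log2 fold change (48 h over vehicle; median and quartiles) of the symbols in equal classes of exonic length (left) and the number of symbols called higher or lower in each class (right). The median falls from 0.30 in the shortest class to -0.07 in the longest, and called genes go from 847 higher and 25 lower to 151 higher and 216 lower.

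The nuclear-encoded subunits of the respiratory chain rose almost as a block. Of 79 subunits measured, 65 were higher and none lower, with a median log2 fold change of 0.64 (44 higher without both animals over 20 months). By complex, 33 of 38 subunits of complex I, which takes electrons from NADH, were higher, against 2 of 4 of complex II, 8 of 9 of complex III, 9 of 12 of complex IV and 13 of 16 of the ATP synthase. In complex I, 36 of the 38 subunits had no overlap between the groups. NDUFB11, a membrane-arm subunit of complex I (rheMac8 chromosome X, 47296049 to 47299106, minus strand), stood at 28.2, 26 and 26.1 CPM with vehicle and 64.5, 60.4 and 57 CPM at 48 h. Its log2 fold change was 1.18 ± 0.09 (edgeR adjusted p = 0.00015). The lowest library at 48 h was well above the highest vehicle library for this gene.

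NDUFB1, another membrane-arm subunit, showed the same separation, at 40.3, 41.1 and 38.1 CPM with vehicle and 96.2, 80.7 and 85.8 CPM at 48 h (log2 fold change 1.14 ± 0.11, edgeR adjusted p = 0.00037). COX8A, the common form of a small subunit of cytochrome oxidase (complex IV), stood at 35.3, 24.9 and 37.7 CPM with vehicle and 92, 85.6 and 85.3 CPM at 48 h (1.43 ± 0.15, adjusted p = 0.0005 by edgeR). The genes COX7B2 and COX8C, which encode alternative forms of complex IV subunits, were not called. COX7B2 stood at 8.55, 12.1 and 11.5 CPM with vehicle and 7.52, 5.63 and 6.41 CPM at 48 h, lower without overlap. COX8C stood at 5.52, 7.39 and 5.85 CPM with vehicle and 6.44, 4.58 and 5.47 CPM at 48 h, with overlapping groups. The locus that merges 11 mitochondrially encoded genes was not called (-0.29 ± 0.23, edgeR adjusted p = 0.44), at 27331, 27485 and 24148 CPM in the vehicle testes and 26882, 13736 and 23972 CPM at 48 h. In 48 h replicate 2 this locus and the mitochondrial gene CYTB (211, 269.7 and 263 CPM with vehicle and 277, 35.1 and 340.4 CPM at 48 h) were the lowest of the 6 libraries.

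Enzymes that feed the respiratory chain also rose. Of 28 citric acid cycle and pyruvate dehydrogenase genes, 17 were higher and none lower (median 0.46; 1 lower without vehicle replicate 1 and 8 higher and none lower without both animals over 20 months). MDH2, mitochondrial malate dehydrogenase, stood at 51.2, 52 and 47.6 CPM with vehicle and 101, 93.9 and 88 CPM at 48 h (log2 fold change 0.91 ± 0.10, edgeR adjusted p = 0.00052). Citrate synthase (CS), which begins the cycle, rose by a similar amount, from 64.4, 63.9 and 67.8 CPM to 115, 121 and 101 CPM (0.78 ± 0.09, edgeR adjusted p = 0.00081). Of 46 genes of fatty acid oxidation and the peroxisome, 16 were higher and 1 lower (4 without both animals over 20 months and 10 with upper-quartile scaling). ACADM, the medium-chain acyl-CoA dehydrogenase, was at 58.3, 58.3 and 58.2 CPM in the vehicle testes, which lay very close together, and at 106, 98 and 106 CPM at 48 h (0.83 ± 0.12, edgeR adjusted p = 0.0017). PDK4, a kinase that inhibits pyruvate dehydrogenase, had values of 47.3, 117 and 75.1 CPM with vehicle and 28.1, 44.7 and 29.9 CPM at 48 h, which did not overlap, and was not called (-1.22 ± 0.39, edgeR adjusted p = 0.073).

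Import of proteins into mitochondria and their synthesis there followed with smaller and less stable counts. Of 27 import genes 14 were higher and none lower (median 0.47; 7 without vehicle replicate 2 or 3 or 48 h replicate 1, 9 without 48 h replicate 3, 3 without both animals over 20 months and 8 with upper-quartile scaling). TIMM17A, a subunit of the inner membrane translocase, stood at 46, 40.1 and 48.5 CPM with vehicle and 76, 64.1 and 68.4 CPM at 48 h (0.63 ± 0.10, edgeR adjusted p = 0.0038). Of 73 mitochondrial ribosomal proteins, 41 were higher and 1 lower (median 0.44), and the count moved with single animals: 18 without 48 h replicate 1, 21 without vehicle replicate 2, 27 without vehicle replicate 3, 12 without both animals over 20 months and 24 with upper-quartile scaling. MRPL52, of its large subunit, rose from 9.91, 8.7 and 9.24 CPM to 20.4, 19 and 20.2 CPM (log2 fold change 1.1 ± 0.14, edgeR adjusted p = 0.0013). The one member that fell, MRPL24 (-0.92 ± 0.13, edgeR adjusted p = 0.0017), was read from a locus that lies within IMMP2L on the same strand (rheMac8 chromosome 3). IMMP2L, an inner membrane peptidase, fell from 123, 136 and 111 CPM to 60.9, 64 and 62.6 CPM (-0.98 ± 0.09, edgeR adjusted p = 0.00037), and reads of the 2 loci may not be separable.

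**Figure D3:**
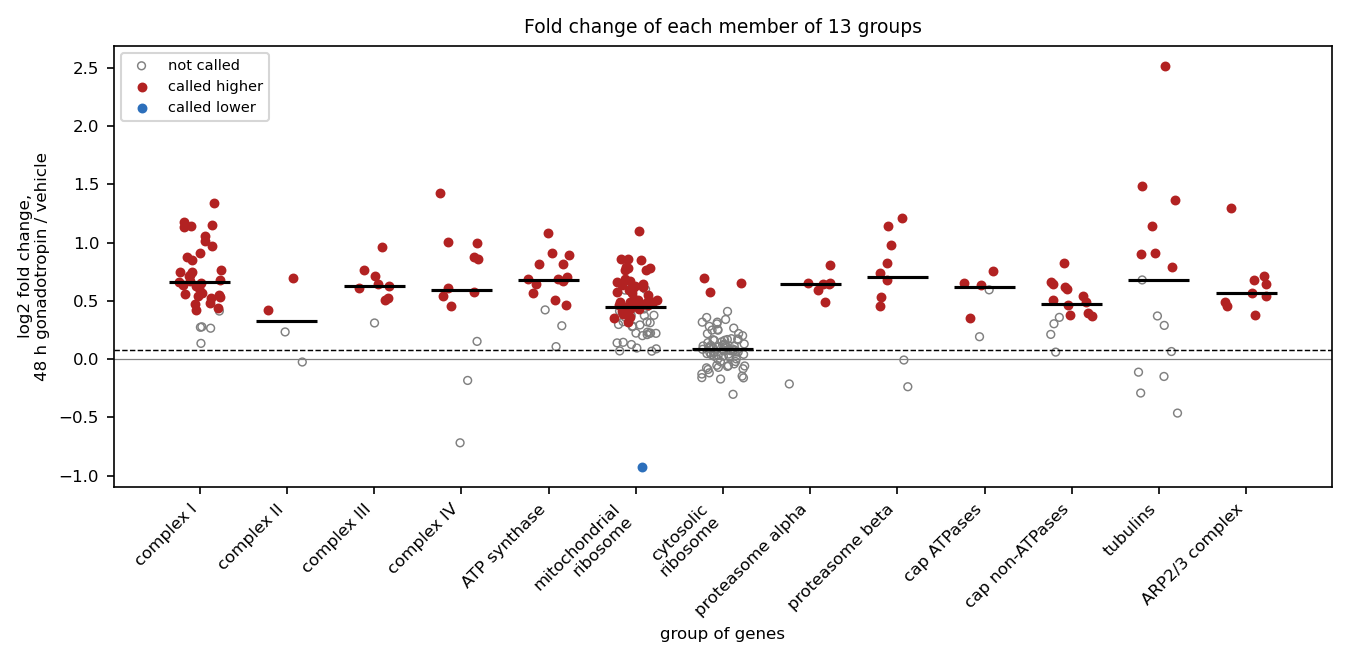
Log2 fold change (48 h over vehicle) of every measured member of 13 groups of genes, with the group median as a bar, called members filled and a dashed line at the median of all symbols (0.07). Complex I, the ATP synthase and proteasome subunits sit mostly above 0.4, cytosolic ribosomal proteins cluster around 0.09, and 1 mitochondrial ribosomal protein (MRPL24) is called lower.

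Cytosolic ribosomal proteins did not share the rise of the mitochondrial ones. Of 80 measured, 3 were higher and none lower, and their median of 0.09 became -0.04 with upper-quartile scaling (1 without vehicle replicate 1, 2 or 3 or 48 h replicate 2 or 3 and 1 with upper-quartile scaling). The 3 called genes were RPL36, RPS2 and RPL36A, and RPS2 and RPL36A each lost the call when single animals were left out. RPS2, of the small subunit, stood at 295, 368 and 392 CPM with vehicle and 466, 706 and 538 CPM at 48 h (0.7 ± 0.19, edgeR adjusted p = 0.033). RPS2 was no longer called without vehicle replicate 1, 2 or 3 or 48 h replicate 2 or 3 (edgeR adjusted p up to 0.1). RPL36, of the large subunit, rose from 188, 152 and 176 CPM to 264, 261 and 244 CPM (0.57 ± 0.12, edgeR adjusted p = 0.011) and lost the call without both animals over 20 months.

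The factors that make ribosomes and charge tRNAs stood between these groups. Of 43 ribosome biogenesis genes, 13 were higher and none lower (median 0.30; 5 without vehicle replicate 2 or 48 h replicate 1, 7 without vehicle replicate 3, 8 without 48 h replicate 3, 3 without both animals over 20 months and 5 with upper-quartile scaling). Of 21 cytosolic aminoacyl tRNA synthetases, 13 were higher and none lower (median 0.41; 5 without vehicle replicate 2, 6 without 48 h replicate 1, 7 without vehicle replicate 3, 2 without both animals over 20 months and 5 with upper-quartile scaling). VARS, which charges valine tRNA, stood at 47.1, 42.3 and 43.6 CPM with vehicle and 73.5, 79.5 and 82.1 CPM at 48 h (0.82 ± 0.11, edgeR adjusted p = 0.0013). Of 41 initiation factors, 11 were higher and none lower (median 0.25; 4 without vehicle replicate 2, 5 without vehicle replicate 3 or 48 h replicate 1, 7 without 48 h replicate 3, 3 without both animals over 20 months and 5 with upper-quartile scaling). Among them EIF5A, a translation factor that helps ribosomes through difficult stretches, rose from 88, 83.2 and 81.6 CPM to 164, 203 and 153 CPM (1.04 ± 0.12, edgeR adjusted p = 0.00073). EIF4A1, the helicase that unwinds mRNA at its start, rose from 229, 199 and 239 CPM to 449.9, 402 and 386 CPM (0.89 ± 0.10, edgeR adjusted p = 0.0009), with no overlap. Of 13 chaperonin and prefoldin subunits, which fold actin and tubulin among others, 6 were higher (1 without vehicle replicate 2 or 48 h replicate 1 or 3, 2 without vehicle replicate 1 or 3 and 1 with upper-quartile scaling).

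The entry of new proteins into the secretory pathway rose broadly. Of 36 genes of translocation into the endoplasmic reticulum and N-glycosylation, 26 were higher and none lower (median 0.46; 11 without both animals over 20 months). SEC61B, a subunit of the translocation channel, stood at 36.2, 37.5 and 35.6 CPM with vehicle and 73.7, 77.8 and 69.5 CPM at 48 h (1.01 ± 0.12, edgeR adjusted p = 0.00091), with every 48 h value above every vehicle value. STT3A, a catalytic subunit of the enzyme that attaches N-glycans, stood at 99.97, 95.3 and 113 CPM with vehicle and 212, 165 and 175 CPM at 48 h (0.84 ± 0.11, edgeR adjusted p = 0.0014). Of 45 COPI and COPII coat proteins and cargo receptors, which carry proteins between the endoplasmic reticulum and Golgi, 31 were higher and none lower (median 0.46; 20 without 48 h replicate 1 and 11 without both animals over 20 months). COPE, a COPI subunit, rose from 93.3, 81.7 and 80.8 CPM to 210.4, 175 and 147 CPM (1.05 ± 0.12, edgeR adjusted p = 0.00083), with vehicle and 48 h libraries apart. The lysosome was less affected in number, with 10 of 46 higher and 1 lower (5 higher without vehicle replicate 3, 6 higher without vehicle replicate 2 or 48 h replicate 1 or 3, none lower without vehicle replicate 1, 2 or 3 or 48 h replicate 1 or 3, 5 higher and none lower without both animals over 20 months and 5 higher and 3 lower with upper-quartile scaling). Among those higher, cathepsin A (CTSA) stood at 38.9, 39.6 and 30.3 CPM with vehicle and 72.8, 81 and 61.7 CPM at 48 h (0.98 ± 0.13, edgeR adjusted p = 0.0012).

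The proteasome rose in its core and its caps. Of 49 subunits and assembly factors, 35 were higher and none lower (median 0.54; 18 without both animals over 20 months). In the core particle, 7 of 8 alpha and 8 of 10 beta subunits were higher, and in the regulatory cap 4 of 6 ATPases and 12 of 16 other subunits (for the last group, 7 without 48 h replicate 1 and 5 without both animals over 20 months). PSMB3, a beta subunit, stood at 26.2, 23.9 and 26.2 CPM with vehicle and 68.2, 56 and 52.8 CPM at 48 h (1.21 ± 0.12, edgeR adjusted p = 0.00037). PSMB6, a catalytic beta subunit of the constitutive proteasome, stood at 42.8, 35.5 and 40.5 CPM with vehicle and 94.4, 85.6 and 81.9 CPM at 48 h (1.14 ± 0.10, edgeR adjusted p = 0.00032). In both genes the 48 h libraries lay above every vehicle library.

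The members of the core particle that were not called include a germ cell form and members of the immunoproteasome. PSMA8, an alpha subunit of germ cells, stood at 8.42, 9.1 and 9.69 CPM with vehicle and 7.99, 7.36 and 8.12 CPM at 48 h, slightly lower without overlap. Of the catalytic subunits of the immunoproteasome, PSMB10 was called higher, at 5.58, 5.99 and 6.46 CPM with vehicle and 10.4, 14.4 and 10.8 CPM at 48 h (0.98 ± 0.23, edgeR adjusted p = 0.018). PSMB10 was no longer called without vehicle replicate 1 or 2 or 48 h replicate 2 (edgeR adjusted p up to 0.06). PSMB8 and PSMB9 were not called. PSMB8 had 7.4, 7.82 and 11.6 CPM with vehicle and 5.06, 8.87 and 8.8 CPM at 48 h, with overlapping groups. PSMB9 had 6.08, 5.79 and 7.08 CPM with vehicle and 4.55, 8.44 and 5.86 CPM at 48 h, also overlapping. Of 5 activator and inhibitor genes, 1 was higher: PSME2, a subunit of the activator that caps the core, rose from 34.9, 33.4 and 35.2 CPM to 66.7, 68.9 and 78.6 CPM (1.05 ± 0.09, edgeR adjusted p = 0.00032).

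In the nucleus, small nuclear ribonucleoprotein (snRNP) components of the spliceosome rose, and few zinc finger, HOX or immediate early genes did. Of 26 snRNP proteins, 16 were higher and none lower (median 0.43; 10 without vehicle replicate 2 or 48 h replicate 1, 6 without both animals over 20 months and 10 with upper-quartile scaling). SNRPA, a U1 snRNP protein, stood at 22, 21.3 and 23.4 CPM with vehicle and 46.7, 45 and 46.2 CPM at 48 h (1.05 ± 0.09, edgeR adjusted p = 0.00032), a tight group on each side. Of 25 nuclear pore proteins 6 were higher (3 without vehicle replicate 3 or 48 h replicate 1 and 3 with upper-quartile scaling), and of 34 histone genes 10 were higher (5 higher without vehicle replicate 2 or 48 h replicate 3, 6 higher without vehicle replicate 1, 1 lower without 48 h replicate 3 and 8 higher and none lower without both animals over 20 months). H2AFZ, the histone variant H2A.Z, rose from 71.3, 81.2 and 84.2 CPM to 141, 129 and 148 CPM (0.82 ± 0.10, edgeR adjusted p = 0.001). DNMT1, which maintains DNA methylation after replication and was picked after its values were seen, stood at 36.5, 43.3 and 41.2 CPM with vehicle and 99, 89.1 and 90.4 CPM at 48 h (1.2 ± 0.09, edgeR adjusted p = 0.00014).

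Of 375 numbered zinc finger genes, 8 were higher and 14 lower, with a median of -0.05 that became 0.04 with the length correction, where 14 were higher and 6 lower. With animals left out the counts were 3 higher without 48 h replicate 1, 4 higher without vehicle replicate 2 or 3, 5 higher without 48 h replicate 3, 5 lower without 48 h replicate 1, 6 lower without vehicle replicate 1 or 3, 7 lower without vehicle replicate 2, 8 lower without 48 h replicate 2 or 3, 2 higher and 2 lower without both animals over 20 months and 4 higher and 35 lower with upper-quartile scaling. ZNF367, a zinc finger gene linked to dividing cells, rose from 12, 12.7 and 18 CPM to 42.8, 32.9 and 41.5 CPM (1.46 ± 0.16, edgeR adjusted p = 0.00071). ZNF483 fell from 127, 107 and 95.2 CPM to 41.2, 46.5 and 51.5 CPM (-1.25 ± 0.16, edgeR adjusted p = 0.0012), and its locus overlaps RPS13 and PTGR1, one of them on the same strand. None of 7 HOX genes was called: HOXD3, the most abundant, stood at 50.03, 68.3 and 65.2 CPM with vehicle and 41.3, 67.5 and 49.5 CPM at 48 h, with overlapping groups. Of 32 immediate early transcription factors, 3 were higher and 1 lower, with a median of 0.03 that became -0.10 with upper-quartile scaling (1 higher without vehicle replicate 1 or 2 or 48 h replicate 1 or 3, none lower without any 1 of the 6 animals and 1 higher with upper-quartile scaling). MYC, which drives growth genes, was the most firmly called of them, at 14.9, 16.9 and 15.7 CPM with vehicle and 40.2, 42.5 and 37.7 CPM at 48 h (1.34 ± 0.18, edgeR adjusted p = 0.0013). JUNB, an AP-1 subunit, stood at 13.6, 15.3 and 27.9 CPM with vehicle and 31.3, 44 and 36.2 CPM at 48 h (0.97 ± 0.26, edgeR adjusted p = 0.038). JUNB was no longer called without vehicle replicate 1 or 2 or 48 h replicate 1, 2 or 3 (edgeR adjusted p up to 0.13).

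Genes of redox defence rose in part. Of 52 measured, 26 were higher and 1 lower (median 0.45; 13 higher without vehicle replicate 2 or 3, 15 higher without 48 h replicate 1, 2 lower without vehicle replicate 1, 8 higher and 1 lower without both animals over 20 months and 3 lower with upper-quartile scaling). Glutathione transferases held 10 of 17 higher members and 1 lower (4 without vehicle replicate 2, 5 without vehicle replicate 3 or 48 h replicate 1 and 4 without both animals over 20 months). Peroxiredoxins held 4 of 6 higher members (2 without both animals over 20 months). TXN, thioredoxin, a small protein that reduces disulphides, stood at 27.9, 28.7 and 29.6 CPM with vehicle and 64.8, 69.4 and 57.4 CPM at 48 h (1.15 ± 0.14, edgeR adjusted p = 0.001). GSTP1, a pi-class glutathione transferase, rose from 116, 120.5 and 110.2 CPM to 229, 223 and 202 CPM (0.92 ± 0.09, edgeR adjusted p = 0.00037).

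The mu and alpha classes of these transferases have near-identical copies, which may share reads, so the assignment of the following values to single genes is uncertain. GSTM3 stood at 230.03, 175 and 286 CPM with vehicle and 1017, 644 and 854 CPM at 48 h (1.86 ± 0.24, edgeR adjusted p = 0.0013), with all 48 h values above 600 CPM. GSTM1 stood at 7.66, 10.02 and 8.4 CPM with vehicle and 3.54, 4.26 and 4.34 CPM at 48 h, lower at 48 h without overlap, and was not called (-1.1 ± 0.35, edgeR adjusted p = 0.061). GSTA1, an alpha-class enzyme also known for a step of steroid isomerization, stood at 13.2, 10.9 and 16.1 CPM with vehicle and 121, 69 and 40.5 CPM at 48 h (2.52 ± 0.52, edgeR adjusted p = 0.013). GSTA1 was no longer called without vehicle replicate 2 (edgeR adjusted p up to 0.055). GSTT1, a theta-class enzyme, fell from 8.49, 12.2 and 8.85 CPM to 2.6, 3.79 and 2.69 CPM (-1.7 ± 0.26, edgeR adjusted p = 0.0027). The family thus held both rises and a fall in the same testes.

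One-carbon and base synthesis enzymes were higher in 14 of 31 cases with none lower (median 0.46; 7 without 48 h replicate 1, 8 without vehicle replicate 2, 9 without vehicle replicate 3, 7 without both animals over 20 months and 8 with upper-quartile scaling). PRPS2 makes phosphoribosyl pyrophosphate, the sugar donor for nucleotides, and stood at 19.6, 27.5 and 33.4 CPM with vehicle and 109, 127 and 91.9 CPM at 48 h (2.02 ± 0.28, edgeR adjusted p = 0.0021; rheMac8 chromosome X, 11994666 to 12029268, plus strand). Its 48 h mean was 4.06 times the vehicle mean, and the groups were far apart. MTHFD1, a folate enzyme of the cytosol, rose from 35.1, 34.1 and 36.5 CPM to 69.7, 60.1 and 58.1 CPM (0.83 ± 0.09, edgeR adjusted p = 0.00069), and its mitochondrial relative MTHFD2 from 26.2, 22.6 and 32 CPM to 53.6, 57.7 and 49.9 CPM (1.0 ± 0.15, edgeR adjusted p = 0.0023). ALAS1, the enzyme that limits heme synthesis and so the supply of heme to cytochromes P450, was picked after its values were seen and stood at 26.4, 27.1 and 35.1 CPM with vehicle and 129, 138 and 87.3 CPM at 48 h (2.0 ± 0.18, edgeR adjusted p = 0.00037). The lowest 48 h value of ALAS1, in 48 h replicate 3, was still well above the highest vehicle value.

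Fatty acid synthesis was higher in 11 of 29 genes (6 without vehicle replicate 2 or 48 h replicate 1, 7 without vehicle replicate 3, 2 without both animals over 20 months and 7 with upper-quartile scaling). The desaturases led: FADS2, which desaturates polyunsaturated fatty acids, stood at 27, 35.2 and 41 CPM with vehicle and 96.9, 136 and 112 CPM at 48 h (1.74 ± 0.21, edgeR adjusted p = 0.0012), and its neighbour in the pathway FADS1 at 89, 102 and 104 CPM with vehicle and 165, 183 and 151 CPM at 48 h (0.76 ± 0.12, edgeR adjusted p = 0.0031). An unnamed locus overlaps FADS2 on the same strand. Lipid droplet and lipase genes were higher in 5 of 23 and lower in 1, with a median of 0.10 that became -0.03 with upper-quartile scaling (3 higher without vehicle replicate 2 or 48 h replicate 1 and none lower without vehicle replicate 2 or 48 h replicate 1 or 3). LRP8, a receptor of the low-density lipoprotein receptor family, was among the largest rises, at 12.6, 10.3 and 13.5 CPM with vehicle and 122, 52.1 and 66.8 CPM at 48 h (2.73 ± 0.44, edgeR adjusted p = 0.0047). A further 3 genes were picked after their values were seen. ABCA1, which exports cholesterol from cells, fell from 226, 242 and 227 CPM to 131, 122 and 161 CPM (-0.74 ± 0.11, edgeR adjusted p = 0.0019). ABCG1, which also exports sterols, stood at 27, 15.6 and 20.5 CPM with vehicle and 8.94, 7.83 and 12.6 CPM at 48 h (-1.1 ± 0.24, edgeR adjusted p = 0.012). ABCG1 was no longer called without 48 h replicate 1 (edgeR adjusted p up to 0.057). NR1H3, the sterol-sensing receptor LXR alpha, stood at 9.25, 11.5 and 6.36 CPM with vehicle and 3.44, 4.83 and 3.56 CPM at 48 h (-1.19 ± 0.35, edgeR adjusted p = 0.0497). NR1H3 was no longer called without any 1 of the 6 animals (edgeR adjusted p up to 0.16).

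Of 245 solute carriers, 30 were higher and 7 lower, near the shares of all symbols, and their median of 0.10 became -0.03 with upper-quartile scaling. With animals left out or another scaling the counts were 17 higher without vehicle replicate 3 or 48 h replicate 1, 19 higher without vehicle replicate 2, 2 lower without vehicle replicate 1 or 48 h replicate 1 or 3, 3 lower without vehicle replicate 2 or 3, 4 lower without 48 h replicate 2 and 13 higher and 1 lower without both animals over 20 months. The carriers of the mitochondrial inner membrane (SLC25) held 8 of 39 and the amino acid carriers of the SLC7 family 4 of 12 higher members (for SLC7, none without vehicle replicate 3 or 48 h replicate 1, 1 without vehicle replicate 2 and 2 with upper-quartile scaling). Without both animals over 20 months 5 SLC25 and no SLC7 carriers were higher. The ADP/ATP exchanger SLC25A5 stood at 54.4, 40.2 and 53.5 CPM with vehicle and 117, 103 and 102 CPM at 48 h (1.12 ± 0.12, edgeR adjusted p = 0.0005). SLC6A8, the creatine carrier, stood at 9.48, 11.2 and 13.9 CPM with vehicle and 29.5, 30.7 and 36.3 CPM at 48 h (1.48 ± 0.18, edgeR adjusted p = 0.00097). For both carriers each 48 h library exceeded each vehicle library. SLC7A11, the cystine carrier, stood at 4.59, 6.03 and 3.97 CPM with vehicle and 13.6, 14.5 and 10.4 CPM at 48 h (1.4 ± 0.33, edgeR adjusted p = 0.018). SLC7A11 was no longer called without vehicle replicate 1 or 3 or 48 h replicate 1 (edgeR adjusted p up to 0.071).

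The cytoskeleton supplied some of the most abundant genes that rose. Of 15 tubulins, 7 were higher and none lower (median 0.68), and 6 were higher without both animals over 20 months. TUBB, a beta-tubulin expressed in most cells (rheMac8 chromosome 4, 31424279 to 31430439, plus strand), stood at 276, 299 and 291 CPM with vehicle and 889, 792 and 749 CPM at 48 h (1.49 ± 0.10, edgeR adjusted p = 5.4e-05). TUBA1B, an alpha-tubulin, stood at 215, 206 and 244 CPM with vehicle and 599, 562 and 550.4 CPM at 48 h (1.36 ± 0.09, edgeR adjusted p = 5.4e-05). Within each group the replicates of these 2 genes differed little, and the groups were far apart. TUBB4A, a beta-tubulin best known from the nervous system, was low, at 0.859, 0.639 and 0.905 CPM with vehicle and 5.33, 4.83 and 3.72 CPM at 48 h (2.52 ± 0.24, edgeR adjusted p = 0.00037). Tubulin genes resemble one another, so reads may be shared between them.

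On the actin side, genes picked after their values were seen rose too. All 9 measured genes of the ARP2/3 complex, which starts branched actin filaments, were higher, with log2 fold changes from 0.38 to 1.29, and 5 were higher without both animals over 20 months. The highest of them, ARPC1B, stood at 50.1, 49 and 41.5 CPM with vehicle and 121, 123 and 101 CPM at 48 h (1.29 ± 0.16, edgeR adjusted p = 0.00098). Profilin (PFN1), which loads actin monomers onto filaments, stood at 57.7, 59.5 and 60.1 CPM with vehicle and 119, 124 and 121 CPM at 48 h (1.04 ± 0.08, edgeR adjusted p = 0.00014), with a spread of a few CPM in each group. ACTB, cytoplasmic beta-actin, stood at 397, 317 and 291 CPM with vehicle and 755, 971 and 657 CPM at 48 h (1.25 ± 0.18, edgeR adjusted p = 0.0019). TMSB10, a thymosin that holds actin monomers, rose from 144, 134 and 143 CPM to 476, 452 and 423 CPM (1.68 ± 0.21, edgeR adjusted p = 0.0012). ACTR1A, the filament subunit of dynactin, rose from 47.1, 49 and 54.7 CPM to 132, 114 and 108 CPM (1.23 ± 0.11, edgeR adjusted p = 0.00032). Smooth muscle markers, which include actins, were higher in sum as well (988 to 1192 CPM with vehicle, 1433 to 1896 CPM at 48 h), and their part was not tested. Of 24 intermediate filament genes 3 were higher (1 without vehicle replicate 1 or 3 or 48 h replicate 3). LMNB1, lamin B1, stood at 42, 39.6 and 43.9 CPM with vehicle and 66.5, 57.7 and 67.2 CPM at 48 h (0.61 ± 0.09, edgeR adjusted p = 0.0017).

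Among the larger rises outside the classic lists were single genes of diverse kinds. RASD1, a small GTPase known as a hormone-responsive brake on adenylyl cyclase signalling, stood at 2.31, 3.63 and 4.26 CPM with vehicle and 30.8, 30.4 and 29.8 CPM at 48 h (3.15 ± 0.24, edgeR adjusted p = 0.00015). The 3 animals at 48 h gave nearly the same RASD1 level. MRO, a gene first described in the developing male gonad, stood at 3.4, 5.15 and 4.98 CPM with vehicle and 46.8, 24.9 and 32.7 CPM at 48 h (2.95 ± 0.28, edgeR adjusted p = 0.00049), with 48 h replicate 1 the highest.

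PLAC9, a small secreted protein, stood at 4.03, 7.55 and 6.27 CPM with vehicle and 39.9, 52.9 and 39.3 CPM at 48 h (2.89 ± 0.37, edgeR adjusted p = 0.0016). TMEM119, a membrane protein known from microglia and bone-forming cells, stood at 1.65, 2.63 and 2.36 CPM with vehicle and 15.5, 11.7 and 12.1 CPM at 48 h (2.56 ± 0.37, edgeR adjusted p = 0.0022). The chemokine CCL2, which attracts monocytes, was low and stood at 0.661, 1.16 and 0.969 CPM with vehicle and 3.57, 8.15 and 4.76 CPM at 48 h (2.56 ± 0.47, edgeR adjusted p = 0.0062). Each of these 3 genes was above the vehicle range in every 48 h library, which the rule that named them required. CCR2, the receptor of CCL2, was not called, at 1.12, 2.52 and 3.3 CPM with vehicle and 3.2, 2.38 and 3.33 CPM at 48 h. IL15RA, a subunit of the interleukin 15 receptor, stood at 0.429, 1.04 and 0.84 CPM with vehicle and 7.59, 3.14 and 2.33 CPM at 48 h (2.5 ± 0.54, edgeR adjusted p = 0.014), a call lost without 48 h replicate 1 (edgeR adjusted p up to 0.052), and its value was 1.83 without that animal. The ligand IL15 was not called.

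Beta-defensins are small secreted antimicrobial proteins, several of which are made in the male tract. DEFB119 stood at 0.694, 0.399 and 1.68 CPM with vehicle and 11.2, 8.12 and 7.38 CPM at 48 h (3.24 ± 0.40, edgeR adjusted p = 0.001; rheMac8 chromosome 10, 32679565 to 32692807, plus strand). Its chromosomal neighbour DEFB123 stood at 0.363, 0.359 and 0.84 CPM with vehicle and 8.94, 6.93 and 7.15 CPM at 48 h (3.85 ± 0.43, edgeR adjusted p = 0.00076). Without vehicle replicate 3 the value for DEFB119 was 4.0. In both, vehicle levels lay below 2 CPM and 48 h levels above 6 CPM, and near-copies of defensin genes may share reads. WFDC1, a secreted protein with a protease inhibitor fold, stood at 22.1, 31.8 and 45.9 CPM with vehicle and 132, 72.6 and 80.6 CPM at 48 h (1.51 ± 0.30, edgeR adjusted p = 0.01). These are the 3 that rose of 6 measured genes in that list.

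**Figure D4:**
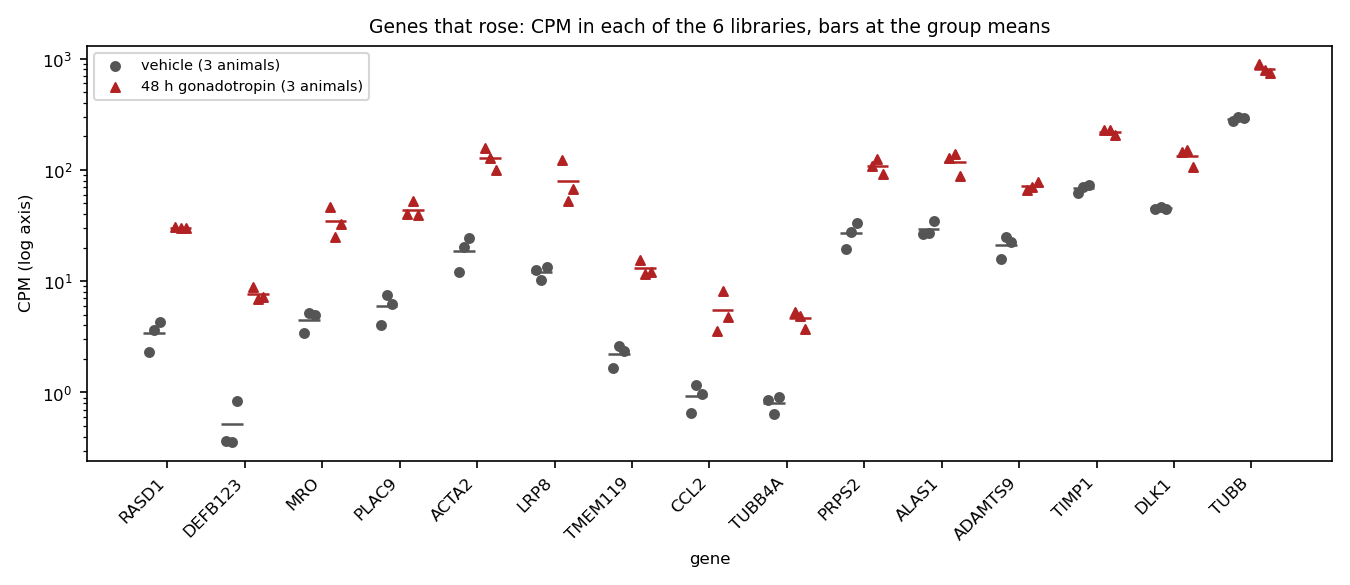
CPM on a log axis in each of the 6 libraries for 15 genes that rose, with circles for the 3 vehicle animals, triangles for the 3 animals at 48 h and bars at the group means. The genes were chosen for display with their values known, some from a rule that required groups without overlap. The groups do not overlap for any gene shown, RASD1 goes from 4.26 CPM at most to 29.8 CPM at least, and TUBB from 299 to 749 CPM.

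In the matrix, a few genes rose sharply within families that mostly did not. Of 42 matrix proteases and their inhibitors, 2 were higher and none lower, with a median of 0.01 that became -0.11 with upper-quartile scaling. ADAMTS9, a protease that cuts proteoglycans, stood at 16, 25 and 22.6 CPM with vehicle and 65.4, 70.8 and 78 CPM at 48 h (1.75 ± 0.15, edgeR adjusted p = 0.00032). TIMP1, an inhibitor of matrix metalloproteases, stood at 61.9, 70.5 and 73.2 CPM with vehicle and 229.6, 227 and 204 CPM at 48 h (1.69 ± 0.17, edgeR adjusted p = 0.00049). A protease and an inhibitor thus both rose, without overlap. Fibroblast markers summed to 3556 to 7319 CPM with vehicle and 6911 to 12103 CPM at 48 h, and their part was not tested. Of 62 laminins, matrix glycoproteins and proteoglycans, 4 were higher and 2 lower (1 higher without vehicle replicate 1 or 48 h replicate 1, 2 higher without vehicle replicate 3 and 1 lower without vehicle replicate 2 or 48 h replicate 1 or 3). NID2, a basement membrane linker, rose from 15.5, 23.8 and 19.6 CPM to 60.3, 54.6 and 68.1 CPM (1.64 ± 0.23, edgeR adjusted p = 0.0021). SPON1, a secreted matrix protein, stood at 7.83, 8.58 and 7.53 CPM with vehicle and 40.7, 35.6 and 27.1 CPM at 48 h (2.11 ± 0.45, edgeR adjusted p = 0.016). SPON1 was no longer called without vehicle replicate 1, 2 or 3 or 48 h replicate 1 (edgeR adjusted p up to 0.058). LAMA3, a laminin chain of epithelial basement membranes, fell from 22.6, 25.1 and 31.2 CPM to 13, 16.5 and 15.5 CPM (-0.81 ± 0.17, edgeR adjusted p = 0.01).

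Among signalling families the calls were few and often downward. In the insulin-like growth factor system, 3 of 26 genes were higher and 5 lower (2 lower without vehicle replicate 2 or 48 h replicate 1 and 3 lower without vehicle replicate 1 or 48 h replicate 3). Without both animals over 20 months 2 of these genes were higher and 1 lower. The largest move was the fall of IGFBP3, the main carrier of insulin-like growth factors in blood, from 574, 515 and 519 CPM to 42, 88.3 and 47.5 CPM (-3.18 ± 0.56, edgeR adjusted p = 0.0067), with every 48 h library far below the vehicle range. IGFBP3 was named by a rule that required groups without overlap, and it was no longer called without both animals over 20 months. Another binding protein, IGFBP4, rose from 141, 206 and 188 CPM to 453, 510.1 and 346 CPM (1.29 ± 0.21, edgeR adjusted p = 0.0037). PAPPA (log2 fold change 1.51) and IGF1, which encodes insulin-like growth factor I (1.86), were also called higher. The call for IGF1 was lost without vehicle replicate 1 or 2 or 48 h replicate 1, 2 or 3, and that for PAPPA was not. On the receiving side, IRS2, an adaptor of the insulin receptor, fell from 18.6, 20.6 and 16.2 CPM to 6.95, 7.36 and 6.34 CPM (-1.42 ± 0.21, edgeR adjusted p = 0.0023). The receptor genes IGF1R and INSR were picked after their values were seen. IGF1R, the receptor for insulin-like growth factor I, stood at 227, 224 and 184 CPM with vehicle and 131, 139.9 and 139 CPM at 48 h (-0.63 ± 0.14, edgeR adjusted p = 0.016). IGF1R was no longer called without vehicle replicate 1 or 2 or 48 h replicate 1 (edgeR adjusted p up to 0.068). INSR, the insulin receptor, stood at 79.6, 90.2 and 76.4 CPM with vehicle and 62.5, 63.6 and 54.2 CPM at 48 h (-0.45 ± 0.10, edgeR adjusted p = 0.019). INSR was no longer called without vehicle replicate 2 or 48 h replicate 1 or 3 (edgeR adjusted p up to 0.076). The libraries of IRS2, IGF1R and INSR did not overlap between the groups.

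In the EGF family and its feedback genes, 3 of 35 were higher and 4 lower (1 higher without vehicle replicate 2 or 3 or 48 h replicate 3, 2 lower without any 1 of the 6 animals and 1 higher with upper-quartile scaling). ERBB3, a receptor for neuregulins (rheMac8 chromosome 11, 54814589 to 54837011, plus strand), stood at 154, 142 and 152 CPM with vehicle and 47.7, 91.1 and 64.1 CPM at 48 h (-1.14 ± 0.21, edgeR adjusted p = 0.0069). The vehicle values were close together and the 48 h values were all lower. SPRY1, an inhibitor of MAP kinase signalling, fell from 26.4, 34.6 and 29 CPM to 17.9, 15.9 and 14.7 CPM (-0.89 ± 0.17, edgeR adjusted p = 0.0081), whereas DUSP1, a phosphatase of MAP kinases, rose from 25.9, 22.6 and 28.5 CPM to 46.1, 65.6 and 61.1 CPM (1.17 ± 0.21, edgeR adjusted p = 0.0055). HGF, hepatocyte growth factor, a ligand picked after its values were seen, stood at 21.6, 20.8 and 25.7 CPM with vehicle and 6.68, 8.66 and 5.95 CPM at 48 h (-1.68 ± 0.19, edgeR adjusted p = 0.00078). FGF7, a fibroblast growth factor made by stromal cells, stood at 8.12, 7.27 and 7.92 CPM with vehicle and 1.05, 3.32 and 1.88 CPM at 48 h (-1.9 ± 0.50, edgeR adjusted p = 0.032). FGF7 was no longer called without vehicle replicate 1, 2 or 3 or 48 h replicate 1 or 3 (edgeR adjusted p up to 0.11).

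Of 47 Wnt pathway genes none was higher and 1 was lower, with a median of -0.17 (2 lower without vehicle replicate 1). That gene was FZD7, a Wnt receptor, which stood at 59.4, 56.8 and 45.7 CPM with vehicle and 25.8, 22.7 and 27.9 CPM at 48 h (-1.08 ± 0.16, edgeR adjusted p = 0.0021). Of 46 BMP and TGF-beta pathway genes none was higher and 2 were lower (1 higher without 48 h replicate 1, 1 lower without vehicle replicate 1 or 3 or 48 h replicate 1, 2 or 3 and 5 lower with upper-quartile scaling). SMAD3, which carries the TGF-beta signal, fell from 59.8, 64.5 and 60.1 CPM to 37.9, 45.2 and 41.4 CPM (-0.57 ± 0.11, edgeR adjusted p = 0.0092). Of 25 Notch genes 2 were higher: DLK1, a non-classical ligand found on immature cells, at 44.9, 46.7 and 44.2 CPM with vehicle and 146, 150.2 and 106 CPM at 48 h (1.57 ± 0.16, edgeR adjusted p = 0.00049), and HEYL, a target of Notch, at 9.21, 11.6 and 12.3 CPM with vehicle and 31.4, 28.5 and 22.5 CPM at 48 h (1.31 ± 0.19, edgeR adjusted p = 0.002). Of 17 hedgehog genes 2 were higher (1 without both animals over 20 months). DHH, the ligand made by Sertoli cells, stood at 15.7, 18 and 17.6 CPM with vehicle and 35.1, 26.6 and 25.7 CPM at 48 h (0.77 ± 0.15, edgeR adjusted p = 0.0081), and HHIP, an inhibitor that hedgehog signalling induces, at 16.2, 35.5 and 38 CPM with vehicle and 72.1, 86 and 70.1 CPM at 48 h (1.35 ± 0.29, edgeR adjusted p = 0.015).

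Axon guidance genes were called rarely, with 2 of 69 higher and 3 lower (1 higher without vehicle replicate 1, 2 or 3 or 48 h replicate 1 and 7 lower with upper-quartile scaling). ROBO1, a receptor for slit ligands, was among the most abundant genes that fell (rheMac8 chromosome 2, 3157157 to 4395223, minus strand). It stood at 1204, 1818 and 1206 CPM with vehicle and 353, 616 and 379 CPM at 48 h (-1.65 ± 0.25, edgeR adjusted p = 0.0033), with each 48 h value far below the lowest vehicle value. The locus as deposited has an exonic length of 121578 bases, and 3 unnamed loci overlap it on the same strand, so its count may include reads of other transcripts. ROBO2 fell from 39.7, 37.1 and 44.6 CPM to 23.9, 25.8 and 29.6 CPM (-0.61 ± 0.12, edgeR adjusted p = 0.0085) and lost the call with the length correction. The ROBO2 locus is overlapped by 7 unnamed loci, 6 of them on the same strand, so the same limit holds for its count. NTN4, a netrin of basement membranes, fell from 103, 84.6 and 72.2 CPM to 50.7, 35 and 45.9 CPM (-0.98 ± 0.17, edgeR adjusted p = 0.0047). SEMA3C, a secreted semaphorin, went the other way, from 111, 86.3 and 146 CPM to 369, 199 and 276 CPM (1.3 ± 0.25, edgeR adjusted p = 0.0096).

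Nuclear hormone receptors were lower in 6 of 42 and higher in 3 (1 higher without vehicle replicate 2 or 3 or 48 h replicate 1, 2 lower without 48 h replicate 1, 3 lower without vehicle replicate 1, 2 or 3 or 48 h replicate 3, 1 higher and 2 lower without both animals over 20 months and 1 higher with upper-quartile scaling). NR3C1, the glucocorticoid receptor, stood at 158, 204 and 173 CPM with vehicle and 89, 113 and 108 CPM at 48 h (-0.79 ± 0.12, edgeR adjusted p = 0.0033). THRB, a thyroid hormone receptor, stood at 12.5, 10.3 and 12.6 CPM with vehicle and 5.67, 4.15 and 4.37 CPM at 48 h (-1.32 ± 0.19, edgeR adjusted p = 0.0018). ESR1, estrogen receptor alpha, stood at 37.1, 47 and 35.8 CPM with vehicle and 19.7, 23.1 and 24.2 CPM at 48 h (-0.84 ± 0.19, edgeR adjusted p = 0.017). ESR1 was no longer called without vehicle replicate 2 or 48 h replicate 1 (edgeR adjusted p up to 0.077). In all 3 receptors each 48 h library was below each vehicle library. NR3C2, the mineralocorticoid receptor, stood at 66.9, 52.3 and 55.8 CPM with vehicle and 35.4, 31.9 and 37.4 CPM at 48 h (-0.74 ± 0.19, edgeR adjusted p = 0.026). NR3C2 was no longer called without vehicle replicate 1 or 3 or 48 h replicate 1, 2 or 3 (edgeR adjusted p up to 0.086). ESRRA, an orphan receptor that controls genes of mitochondrial metabolism, rose from 19.8, 19.7 and 21 CPM to 32.1, 33.1 and 28.8 CPM (0.64 ± 0.10, edgeR adjusted p = 0.0029). Of 20 genes responsive to glucocorticoid or androgen, 4 were higher and 2 lower (1 higher without vehicle replicate 1 or 48 h replicate 2 or 3, 2 higher without vehicle replicate 3 or 48 h replicate 1 and 1 lower without vehicle replicate 2 or 3 or 48 h replicate 1 or 2). None of the 20 was called without both animals over 20 months. NDRG1, a stress and hormone response gene, fell from 127, 123 and 109 CPM to 53.2, 57.4 and 58.5 CPM (-1.09 ± 0.20, edgeR adjusted p = 0.0059), and the metallothionein MT2A rose from 4.76, 3.27 and 3.33 CPM to 10.9, 8.69 and 12.1 CPM (1.48 ± 0.30, edgeR adjusted p = 0.0092).

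A further set of falls was picked after the values were seen. FBXO32, a muscle-wasting ubiquitin ligase subunit, stood at 40.5, 49.5 and 44.1 CPM with vehicle and 12.3, 14.8 and 14.8 CPM at 48 h (-1.68 ± 0.20, edgeR adjusted p = 0.00097). PIK3IP1, an inhibitor of phosphoinositide 3-kinase, stood at 146, 99.9 and 138 CPM with vehicle and 29.7, 58.6 and 45.7 CPM at 48 h (-1.52 ± 0.25, edgeR adjusted p = 0.0047). BCL6, a transcriptional repressor, fell from 21.2, 26.8 and 21.4 CPM to 10.1, 13.1 and 11.5 CPM (-1.0 ± 0.17, edgeR adjusted p = 0.004). FOXO3, a forkhead transcription factor, fell by less, from 199, 202 and 176 CPM to 134, 144 and 146 CPM (-0.44 ± 0.08, edgeR adjusted p = 0.0064). N4BP2L1, whose function is little known, fell from 116, 105 and 98.7 CPM to 35.1, 41.5 and 46.5 CPM (-1.38 ± 0.14, edgeR adjusted p = 0.0005). TXNIP, which inhibits thioredoxin, was lower without overlap, at 600.4, 1089 and 928 CPM with vehicle and 391, 451 and 477 CPM at 48 h, and was not called (-0.99 ± 0.30, edgeR adjusted p = 0.063).

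**Figure D5:**
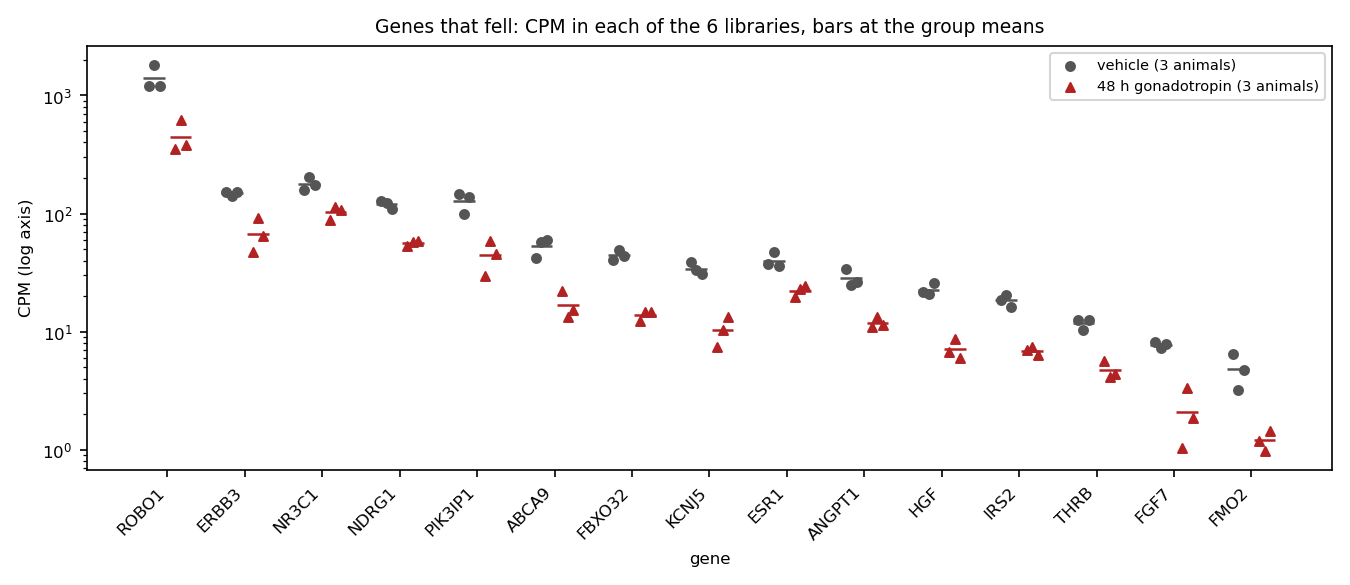
CPM on a log axis in each of the 6 libraries for 15 genes that fell, with circles for the 3 vehicle animals, triangles for the 3 animals at 48 h and bars at the group means. The genes were chosen for display with their values known, some from a rule that required groups without overlap. The groups do not overlap for any gene shown, NR3C1 goes from 158 CPM at least to 113 CPM at most, and ERBB3 from 142 to 91.1 CPM.

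Potassium channels were lower in 4 of 67 and higher in 1 (none higher without vehicle replicate 1, 2 or 3 or 48 h replicate 1, 2 higher without 48 h replicate 2, 1 lower without vehicle replicate 2 or 3 or 48 h replicate 1 or 3 and 2 lower without vehicle replicate 1 or 48 h replicate 2). Without both animals over 20 months no potassium channel was called. KCNJ5, an inward rectifier coupled to G proteins, stood at 38.6, 33.5 and 30.6 CPM with vehicle and 7.39, 10.2 and 13.4 CPM at 48 h (-1.73 ± 0.33, edgeR adjusted p = 0.008), and its partner KCNJ3 at 61.5, 71.1 and 56.7 CPM with vehicle and 22.1, 39.7 and 25.5 CPM at 48 h (-1.12 ± 0.28, edgeR adjusted p = 0.026). KCNJ3 was no longer called without vehicle replicate 1, 2 or 3 or 48 h replicate 1 or 3 (edgeR adjusted p up to 0.1). KCNK3, a background channel, stood at 0.793, 0.798 and 0.678 CPM with vehicle and 7.35, 2.56 and 1.81 CPM at 48 h (2.36 ± 0.54, edgeR adjusted p = 0.018; log2 fold change of 1.53 without 48 h replicate 1). KCNK3 was no longer called without vehicle replicate 1, 2 or 3 or 48 h replicate 1 (edgeR adjusted p up to 0.066). Among 57 cyclic nucleotide enzymes and protein kinase A subunits, 9 were higher and 1 lower (3 without vehicle replicate 3, 4 without 48 h replicate 3, 5 without vehicle replicate 1 or 48 h replicate 1 or 2, 1 without both animals over 20 months and 5 higher and 3 lower with upper-quartile scaling). The adenylyl cyclases split: ADCY5 rose from 31.6, 31 and 38.5 CPM to 57.2, 59.2 and 54.8 CPM (0.76 ± 0.14, edgeR adjusted p = 0.0064), and ADCY9 fell from 61.6, 63.7 and 58.5 CPM to 29.3, 43.1 and 37.6 CPM (-0.74 ± 0.16, edgeR adjusted p = 0.012). RGS16, which shortens G protein signals, rose from 5.65, 4.95 and 8.69 CPM to 12.3, 21.9 and 17.8 CPM (1.43 ± 0.26, edgeR adjusted p = 0.0062).

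Of 22 retinoid genes, 4 were higher and none lower (2 without vehicle replicate 2 or 3 or 48 h replicate 1). RDH10, which makes the aldehyde precursor of retinoic acid, stood at 32.3, 24.1 and 29.2 CPM with vehicle and 56.9, 56.4 and 54.3 CPM at 48 h (0.97 ± 0.22, edgeR adjusted p = 0.017). RDH10 was no longer called without vehicle replicate 2 or 3 or 48 h replicate 1 (edgeR adjusted p up to 0.07). Of 40 angiogenic and vasoactive genes, 4 were higher and 3 lower, with a median of 0.06 that became -0.07 with upper-quartile scaling (1 higher without vehicle replicate 1 or 3, 2 higher without vehicle replicate 2 or 48 h replicate 1 or 3 and 1 lower without vehicle replicate 2 or 3 or 48 h replicate 1 or 3). None of the 40 was called without both animals over 20 months. ANGPT1, a ligand that stabilizes vessels, fell from 34.1, 24.9 and 26.3 CPM to 10.9, 13.4 and 11.5 CPM (-1.25 ± 0.23, edgeR adjusted p = 0.0057). EDNRB, an endothelin receptor, stood at 78.4, 90.1 and 95.4 CPM with vehicle and 22.9, 48.3 and 27 CPM at 48 h (-1.43 ± 0.33, edgeR adjusted p = 0.021). EDNRB was no longer called without vehicle replicate 2 or 3 or 48 h replicate 1 or 3 (edgeR adjusted p up to 0.082).

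Of 37 cell death genes, 7 were higher and 1 lower, with a median of 0.12 that became -0.01 with upper-quartile scaling (3 higher without vehicle replicate 2, 4 higher without 48 h replicate 1, none lower without vehicle replicate 1 or 48 h replicate 3 and 3 lower with upper-quartile scaling). Both effectors that permeabilize mitochondria rose. BAK1 stood at 10.5, 11.3 and 11.5 CPM with vehicle and 24.4, 24 and 20.4 CPM at 48 h (1.05 ± 0.12, edgeR adjusted p = 0.00084). BAX stood at 12.6, 12.5 and 13.1 CPM with vehicle and 34.7, 22.7 and 21.6 CPM at 48 h (1.04 ± 0.17, edgeR adjusted p = 0.004). BCL2L11, which encodes the BH3 protein BIM, stood at 23.2, 21 and 20.4 CPM with vehicle and 15.4, 13 and 14.2 CPM at 48 h (-0.6 ± 0.14, edgeR adjusted p = 0.021). BCL2L11 was no longer called without vehicle replicate 1 or 2 or 48 h replicate 2 or 3 (edgeR adjusted p up to 0.068). Thus members that promote death were found on both sides.

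Several families had no call or nearly none. By edgeR no member was called among 35 interferon-stimulated genes (median -0.26), 23 antigen presentation genes, 17 protocadherins (median -0.42) and 7 HOX genes. At an unadjusted p below 0.05 these families held 5, 1, 3 and 0 members, and DESeq2 called 2, 0, 1 and 0. Leaving out 48 h replicate 3 gave 5 lower interferon-stimulated genes, leaving out vehicle replicate 2 gave 1, and leaving out 48 h replicate 1 gave 1 lower protocadherin. Upper-quartile scaling gave 1 lower gene in each of these 2 families. IFI6, an interferon-induced gene, stood at 598, 481 and 368 CPM with vehicle and 232, 229.9 and 568 CPM at 48 h, with 48 h replicate 3 apart from the other 2 animals at 48 h. B2M, the light chain of class I antigen-presenting molecules, stood at 509.9, 498 and 725 CPM with vehicle and 475, 655 and 694 CPM at 48 h, with overlapping groups. PCDH11X, an X-linked protocadherin, stood at 153, 232 and 182 CPM with vehicle and 134, 78.7 and 115 CPM at 48 h without overlap and was not called (-0.79 ± 0.24, edgeR adjusted p = 0.061). Of 46 claudin, cadherin and scaffold genes 1 was higher and 1 lower (2 higher without vehicle replicate 1 or 3 or 48 h replicate 2 and 2 lower without vehicle replicate 1 or 48 h replicate 2).

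Markers of other cells that a whole testis can hold were summed in each library, and their part in the results above was not tested. In the lists with no edgeR call, the endothelial markers held 0 members at an unadjusted p below 0.05, the myeloid 2, the lymphocyte 1, the mast cell 1, the red blood cell 0 and the adipocyte 0, and DESeq2 called 2 myeloid and 1 mast cell marker. Of the endothelial markers 20 of 22 were measured and none was called, with sums from 184 to 259 CPM in the vehicle testes and 184 to 300 CPM at 48 h; VWF, a defining marker, was not among the measured symbols. Myeloid markers (19 of 22 measured, none called) summed to 147 to 317 CPM and 258 to 422 CPM, lymphocyte markers (9 of 22, none called) to 34.1 to 58.8 CPM and 30.1 to 46.1 CPM. The defining lymphocyte markers CD3E, CD79A and MS4A1 were not among the measured symbols. Mast cell markers (4 of 10, none called) summed to 5.52 to 14.1 CPM and 10.9 to 33.3 CPM, red blood cell markers (5 of 11, none called) to 32.4 to 123 CPM and 26.4 to 158 CPM, and adipocyte markers (4 of 11, none called) to 10.1 to 28.7 CPM and 6.37 to 18.8 CPM.

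Epididymis markers bear on the defensins, which are listed among them, and nerve markers on ERBB3. MBP, a myelin protein and like ERBB3 a nerve marker, stood at 4.03, 3.67 and 5.49 CPM with vehicle and 1.75, 2.63 and 1.62 CPM at 48 h (-1.14 ± 0.30, edgeR adjusted p = 0.03). MBP was no longer called without vehicle replicate 1, 2 or 3 or 48 h replicate 1 or 3 (edgeR adjusted p up to 0.12). SOX10, the Schwann cell transcription factor, stood at 1.49, 1.72 and 1.32 CPM with vehicle and 1.42, 1.8 and 1.46 CPM at 48 h, was not called and had overlapping groups. Of 29 epididymis and efferent duct markers 9 were measured, of which DEFB119 and DEFB123 rose, with sums of 52.5 to 66.6 CPM against 56.3 to 79.1 CPM. PAX2, LCN8, DEFB118, SPAG11B and CRISP1 were not among the measured symbols.

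Smooth muscle and fibroblast markers also held called members. Median log2 fold changes were 0.54 for smooth muscle and 0.13 for fibroblast markers. In lists with no call they were 0.51 for myeloid, 0.89 for mast cell and 0.22 for red blood cell markers. They were -0.11 for endothelial, -0.43 for lymphocyte and -0.63 for adipocyte markers. All 15 peritubular and smooth muscle markers were measured, 4 were higher and none lower (2 without any 1 of the 6 animals or with upper-quartile scaling, where 1 was lower), with sums of 988 to 1192 CPM against 1433 to 1896 CPM. TAGLN, an actin-binding protein of smooth muscle, stood at 19.6, 26.7 and 22.2 CPM with vehicle and 90.7, 155 and 103 CPM at 48 h (2.35 ± 0.31, edgeR adjusted p = 0.0018). All 17 interstitial fibroblast and stem Leydig cell markers were measured and 3 were higher (1 without vehicle replicate 1 or 48 h replicate 2 or 3), with sums of 3556 to 7319 CPM against 6911 to 12103 CPM. THY1, a surface protein of fibroblasts, stood at 20.2, 29 and 24.6 CPM with vehicle and 55.1, 81.8 and 69.8 CPM at 48 h (1.49 ± 0.34, edgeR adjusted p = 0.021). THY1 was no longer called without vehicle replicate 1 or 3 or 48 h replicate 2 or 3 (edgeR adjusted p up to 0.067).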

How the data were processed

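Total RNA of whole right testis was sequenced from TruSeq Stranded Total RNA libraries, per the labels' protocols. The submitters' processing notes list HTSeq 0.6.1p1, TopHat2 2.1.1 with Bowtie2 2.2.8, the trimmer cutadapt 1.9.1, Cufflinks 2.2.1, edgeR and the genome build rheMac8. The authors deposited raw counts per locus; whether counting used strand is not given in the sources used here. Every deposited locus reached 1 CPM in at least 3 libraries. Exon coordinates were deposited by the authors as a transcript annotation, and lengths are merged exons from it. The authors' own CPM and statistics were not used; CPM was recomputed from the deposited counts.

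Counts were fitted with edgeR 4.0.16 (R 4.3.3; TMM, robust quasi-likelihood test, Benjamini-Hochberg over all loci) in 1 model of group means over all 10 libraries. DESeq2 1.42.0 and limma 3.58.1 (voom) were alternatives, as were other scalings, age as a covariate or block, a length correction, each animal left out, and both animals over 20 months left out. The fit was tested on simulated counts. Replicates of a group differed by more than sampling noise (chi-square per degree of freedom at least 15.8). The p-values measure the spread between animals. One locus stood for each symbol. Named genes are the 15 called genes with the greatest rise and the 15 with the greatest fall (1 symbol, outside the classic lists, groups apart, average log2 CPM 1 or more), up to 4 called members of each list by smallest p (or 2 by abundance where none was called), the 5 most abundant called genes in each direction, and genes picked after their values were seen. The lists and members were chosen with earlier results of these data known. Of 322 named genes, 80 overlap another locus, and there the reads may not be separable. Some genes that the rule selects are not reported here.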

Additional observations from a re-analysis of the deposited data

How the results depend on the processing

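The number of loci called (3273, 2288 higher and 985 lower) changed with the test and the animals more than with the filter. DESeq2 called 5079, with 1693 lower. Upper-quartile scaling gave 1392 higher and 1732 lower. A threshold of 0.01 left 1238, with 1005 higher and 233 lower. Without both animals over 20 months 850 were called (696 higher, 154 lower), in 2 animals against 2. In that fit the chaperonin and prefoldin, nuclear pore, lipid droplet and immediate early families each kept 1 higher gene and none lower. The same held for the intermediate filament, matrix glycoprotein and retinoid families. The EGF family kept 1 higher and 2 lower, axon guidance 2 lower and the cell death genes 3 higher. No BMP and TGF-beta gene was called. Leaving out each animal in turn gave 1564 to 2776 called, 1240 to 1954 higher and 324 to 822 lower. Symbols called (2512) became 707 without both animals over 20 months, 1030 at 0.01 and 1284 to 2106 with 1 animal left out. The cause of these moves was not tested. Leaving out both animals over 20 months changed the ages and the number of animals together, and these cannot be told apart. Using no filter changed nothing, since no locus had been removed. Of 279 named genes that were called, 148 kept the call in all 19 alternatives, 150 without both animals over 20 months and 259 with age class as a block, and none reversed. The 19 include the fit without a filter, which equals the main fit. Named genes were picked largely for a small p or a large change, so these counts do not stand for all called genes. The labels do not pair the animals, and the replicate numbers were given in accession order, so no analysis by labelled pairs was possible. Ages were similar in both groups. A fit with age class (14 months, 15 months or over 20 months) as a block called 3227 loci. Each class held 1 vehicle animal and 1 animal at 48 h. Depth was similar between libraries; at a mean of a few CPM, as for IL15RA, a single animal can decide the call.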

Other observations

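Some gene families that belong to none of the lists stood out when the called genes were read through, and were chosen after their values were seen, so their counts describe these libraries and test nothing. Of 11 TCEAL and BEX genes, small X-linked genes of transcription elongation factor-like proteins, 6 were higher and none lower. TCEAL3 stood at 4.52, 4.27 and 5.04 CPM with vehicle and 12.2, 20.3 and 14.8 CPM at 48 h (log2 fold change 1.77 ± 0.21, edgeR adjusted p = 0.00097), and TCEAL5 at 28.9, 28.2 and 33.4 CPM with vehicle and 103, 78.8 and 102 CPM at 48 h (1.65 ± 0.17, edgeR adjusted p = 0.00052). The groups did not overlap for either gene. Of 13 MAGE genes 3 were higher (1 without vehicle replicate 1 or 3 or 48 h replicate 1 or 2), the clearest being MAGED1, at 92.8, 95.6 and 80.9 CPM with vehicle and 211, 195 and 171 CPM at 48 h (1.1 ± 0.15, edgeR adjusted p = 0.0017). Of 4 thymosin beta genes 3 were higher (1 without both animals over 20 months). Of 10 annexins, membrane-binding proteins regulated by calcium, 4 were higher, and none was called without 48 h replicate 1, vehicle replicate 2 or vehicle replicate 3. LGALS1, a secreted lectin, stood at 44, 63.4 and 55 CPM with vehicle and 142, 202 and 147 CPM at 48 h (1.6 ± 0.24, edgeR adjusted p = 0.0032).

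Among falls, ABCA transporters were lower in 3 of 11 and higher in 1. ABCA7, which rose, stood at 7.27, 7.07 and 7.37 CPM with vehicle and 20.9, 16.8 and 14.9 CPM at 48 h (1.28 ± 0.17, edgeR adjusted p = 0.0015). ABCA9 stood at 42, 57.7 and 60.03 CPM with vehicle and 22, 13.4 and 15.2 CPM at 48 h (-1.66 ± 0.21, edgeR adjusted p = 0.0012). ABCA6, a neighbouring family member, stood at 24.1, 83.8 and 41.4 CPM with vehicle and 13.6, 29.5 and 19.6 CPM at 48 h and was not called (-1.25 ± 0.47, edgeR adjusted p = 0.12). FMO2, a flavin monooxygenase, which oxidizes foreign compounds, stood at 6.47, 3.19 and 4.75 CPM with vehicle and 1.18, 0.974 and 1.46 CPM at 48 h (-1.99 ± 0.38, edgeR adjusted p = 0.007). PHKG1, a catalytic subunit of phosphorylase kinase, stood at 2.11, 3.39 and 3.68 CPM with vehicle and 0.472, 1.08 and 0.906 CPM at 48 h (-1.9 ± 0.37, edgeR adjusted p = 0.008). In each of the genes named here as fallen, all 48 h libraries were below all vehicle libraries, which the rule that named FMO2 required.

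The 4 animals infused for 96 h, 14 months old, give the level of the same genes later and outside this comparison. RASD1 averaged 43.2 ± 9.46 CPM there (SD, n = 4), against 30.3 ± 0.495 CPM (SD, n = 3) at 48 h. TUBB averaged 700.2 ± 48.2 CPM against 810.05 ± 71.7 CPM. ROBO1 averaged 743 ± 134 CPM against 449 ± 145 CPM. The difference between these 2 times was not tested here.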
